A study of Bos taurus with 16 samples.

Results

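DUXA and ARGFX are 2 homeobox genes of the PRD class, chosen by name and followed through every blastocyst and stem cell library of the series. They are 2 of the 38959 genes listed for the first set of bovine blastocysts and 2 of the 37429 listed for the second set. No row of the 28303 in the table of bovine embryonic stem cells (bESCs) carries either name. DUXA was picked for its level in LY10 blastocysts, and ARGFX and the DUXA level in cell16_LY were picked after the values of the second set had been seen, so those comparisons are given as descriptions with no test.

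PRD-like homeobox genes encode proteins that bind DNA through a homeodomain, and DUXA carries a pair of them. ARGFX, LEUTX, DPRX and the TPRX genes arose in placental mammals by duplication of the homeobox gene CRX and diverged quickly in sequence. In human embryos genes of both kinds are transcribed briefly around the time when the embryo starts to use its own genome, and adult tissues hold little of their RNA.

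LY2955303 (LY), an inhibitor of the retinoic acid receptor RARγ, was given to wild-type bovine embryos made by in vitro fertilization, and each blastocyst library came from 1 embryo. In the first set, 3 LY10 blastocysts had grown with 10 μM LY from the 2-cell stage and 3 DMSO blastocysts with its solvent. In the second set, 2 cell2_LY blastocysts had received LY from the 2-cell stage and 2 cell16_LY blastocysts from the 16-cell stage, at a dose the labels do not give, beside 2 LY_DMSO blastocysts. LY_DMSO names both the drug and the solvent in its label and is taken here as the solvent control of the second set, and 2 bESC_LY and 2 bESC_tifx libraries hold bESCs grown on mouse feeder cells in TIFX medium with LY or in TIFX medium.

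The blastocyst libraries held between 7905768 and 17343140 reads on genes and the bESC libraries between 29055323 and 31230432. DMSO replicate 3 was closer to the LY10 libraries than to its own group, with Spearman's rho over 14249 genes of 0.903 to 0.927 against LY10 and of 0.844 and 0.883 against the other DMSO libraries. All blastocysts expressed some markers of trophectoderm, epiblast and hypoblast, and the summed level of 12 oocyte genes was at most 133 normalized counts. The epiblast marker FGF4 was at 0 in every library of the second set and in 3 of the first. The hypoblast marker SOX17 was at 0 in LY_DMSO, cell16_LY, DMSO replicate 3, LY10 replicates 1 and 3 and cell2_LY replicate 1. FOXA2 was at 0 in LY10, DMSO replicate 1, LY_DMSO replicate 2 and cell16_LY replicate 2. Of the trophectoderm markers, HAND1 was at 0 in cell16_LY, DMSO replicate 1 and LY_DMSO replicate 1. ELF5 was at 0 in DMSO replicates 1 and 2. Levels are given as FPKM, the deposited fragments scaled to transcript length and library size, or as a normalized count, which is reads scaled to the mean library size of the set and not to length.

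DUXA (Gene ID 100297492) lies on the minus strand of chromosome 18 at 64398298 to 64403851 in ARS-UCD2.0, and ARGFX (Gene ID 783691) on the plus strand of chromosome 1 at 66079635 to 66087758. The transcript lengths behind the FPKM values are 856 and 1016 bases. Both positions are those of the RefSeq annotation.

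DUXA was among the more abundant transcripts of DMSO blastocysts and had no read in LY10 blastocysts. The 3 DMSO libraries held 246, 612 and 643 DUXA reads, which is 20.9, 66.8 and 77.2 FPKM. These levels were higher than those of 85.3%, 93.5% and 94.1% of the genes with a read in the same library. The 3 LY10 libraries held 0 reads each.

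As normalized counts, DUXA was at 191, 609 and 703 in DMSO, a mean of 501 ± 273 (SD, n = 3). With a limit of 3 reads over the LY10 group, DUXA was at least 468-fold lower there than in DMSO. The difference on the log2(normalized count + 1) scale was -8.77 (SE 0.68), the lowest of 14249 genes tested. The groups did not overlap, as for 14.4% of tested genes that were lower in LY10, and since this comparison chose the gene nothing further is read from it. DMSO replicate 3, which stood near the LY10 libraries over all genes, had the highest DUXA level of all 12 blastocysts.

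DUXA was present in both LY_DMSO blastocysts and low or undetected in all 4 LY blastocysts of the second set. LY_DMSO held 343 and 48 DUXA reads, or 24.4 and 3.40 FPKM. The cell2_LY libraries held 25 and 1 reads, or 2.09 and 0.0756 FPKM, and the cell16_LY libraries held 0 reads each. Every LY library of the second set lay below both of its controls, although the lower control and the higher cell2_LY library were close.

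As normalized counts, DUXA was at 318 and 44.4 in LY_DMSO (mean 181 ± 193, SD, n = 2) and at 27.3 and 0.986 in cell2_LY (mean 14.1 ± 18.6, SD, n = 2). The ratio of the group totals, scaled for depth, was 13.4, with an interval of 9.02 to 20.8 that covers counting error only. DUXA was lower in cell2_LY by a log2 difference of -4.00 (SE 1.52), with an unadjusted p of 0.0283 in limma. In that comparison 8.34% of tested genes were called lower. DUXA passed the minimum mean through the LY_DMSO libraries, so a lower level was favoured before the test. The LY_DMSO values had also been seen when ARGFX was picked. After adjustment over 14529 genes p was 0.160, so the difference did not pass, as 0.0138% of tested genes did, and over all alternatives the adjusted p lay between 0.122 and 0.439.

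The call in cell2_LY rested on single libraries. Without LY_DMSO replicate 1, which holds most of the control reads, the log2 difference was -2.60 and limma's unadjusted p was 0.226. Without cell2_LY replicate 2, the library with 1 read, it was -2.09 and p was 0.181 in limma.

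DUXA in cell16_LY was at least 117-fold lower than in LY_DMSO at a limit of 3 reads over the group. LY_DMSO replicate 1 held 343 of the 391 control reads, and the bound was 28.6-fold without it and 205-fold without LY_DMSO replicate 2. The log2 difference was -6.91 (SE 1.52), the 4th lowest of 14529, where cell2_LY gave the 47th lowest. Without LY_DMSO replicate 1 the difference was -5.50, and without replicate 2 it was -8.32. Non-overlapping lower levels were seen in 26.9% of tested genes in cell2_LY and in 22.0% in cell16_LY. These comparisons share the LY_DMSO libraries. Between the LY groups, the log2 difference of cell16_LY from cell2_LY was -2.91 (SE 1.52), and 1 cell2_LY library carried it, since it shrank to -0.99 without cell2_LY replicate 1.

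**Figure D1:**
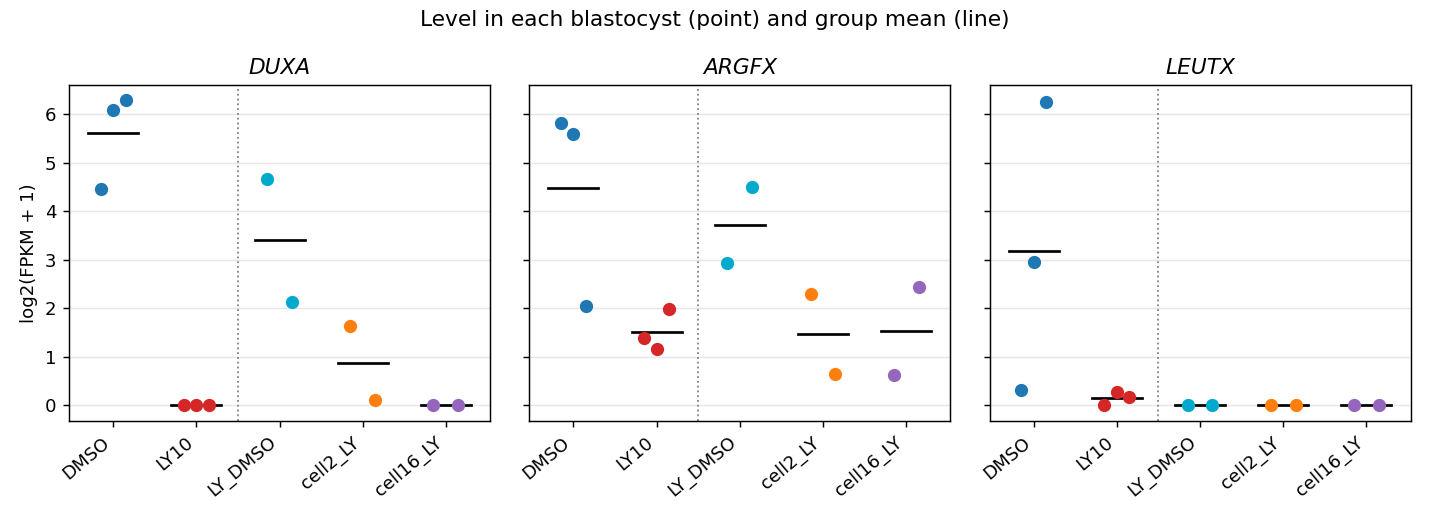
Levels of DUXA, ARGFX and LEUTX as log2(FPKM + 1) in each of the 12 blastocysts (points) with the group mean on that scale (line). The dotted line parts the first set (DMSO, LY10) from the second. DUXA is at 0 in the 3 LY10 and the 2 cell16_LY libraries, ARGFX keeps a low level in every LY library, and LEUTX is at 0 throughout the second set.

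ARGFX was lower in LY blastocysts as well but kept reads in every library. The DMSO libraries held 773, 517 and 31 ARGFX reads, or 55.4, 47.5 and 3.13 FPKM. The LY10 libraries held 13, 20 and 25 reads, or 1.64, 1.24 and 2.99 FPKM. DMSO replicate 3 was thus barely above the highest LY10 library, while the other DMSO libraries were far above it. Lower levels in LY10 without overlap were seen in 14.4% of tested genes.

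As normalized counts, the ARGFX mean was 383 ± 305 (SD, n = 3) in DMSO and 21.2 ± 9.94 (SD, n = 3) in LY10. The depth-scaled ratio was 21.3, with a counting interval of 16.4 to 28.2. The log2 difference was -3.41 (SE 0.99), the 347th lowest of 14249 genes tested. It was -4.74 without DMSO replicate 3.

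ARGFX in the second set was at 112 and 364 reads in LY_DMSO (6.70 and 21.7 FPKM), 55 and 9 reads in cell2_LY (3.88 and 0.573 FPKM), and 9 and 59 reads in cell16_LY (0.540 and 4.44 FPKM). Both LY groups lay below both controls, as did 26.9% of tested genes in cell2_LY and 22.0% in cell16_LY. The log2 difference from LY_DMSO was -2.94 (SE 1.15) in cell2_LY and -2.88 (SE 1.15) in cell16_LY. With 1 library left out these ran from -4.25 (without cell2_LY replicate 1) to -1.62 (without cell2_LY replicate 2) and from -4.33 (without cell16_LY replicate 2) to -1.43 (without cell16_LY replicate 1). The corresponding ratios were 6.64 (5.11 to 8.76, counting error only) and 6.26 (4.85 to 8.20).

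The 2 LY groups overlapped in ARGFX. Their mean normalized counts were 34.5 ± 36.2 (SD, n = 2) in cell2_LY and 38.6 ± 42.7 (SD, n = 2) in cell16_LY, a log2 difference of 0.06 (SE 1.15). This difference lay between -1.39 and 1.51 when 1 library was left out.

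**Figure D2:**
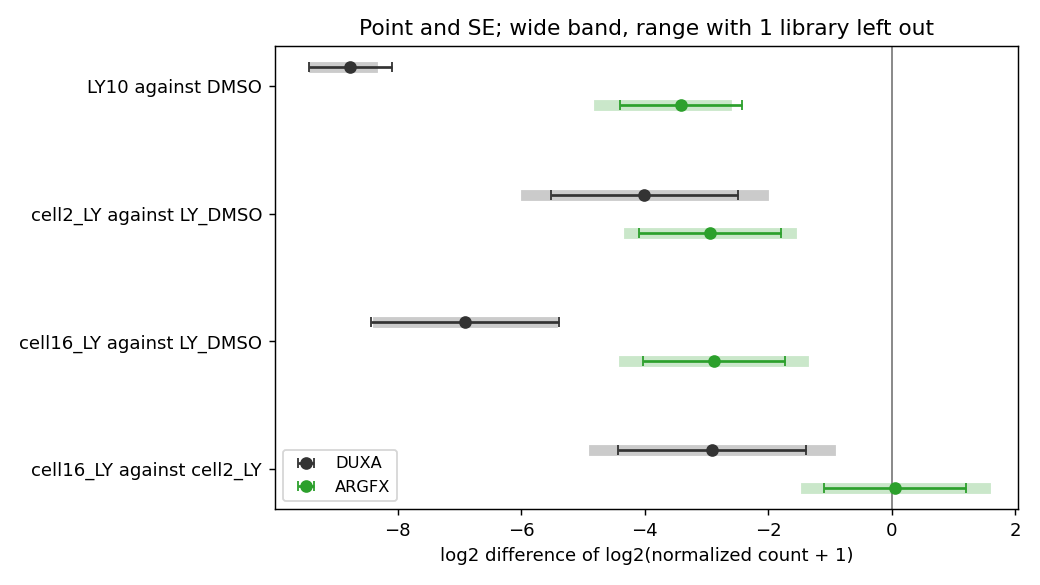
Log2 difference of log2(normalized count + 1) for DUXA (black) and ARGFX (green) in 4 comparisons, with the SE as bars and the range over fits with 1 library left out as the wide band. DUXA is lower in each, from -8.77 to -2.91, while ARGFX is near -3 against the controls and at 0.06 between the LY groups.

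Ordered by mean level, DUXA was highest in DMSO, at 54.96 FPKM, then LY_DMSO (13.9 FPKM) and cell2_LY (1.08), and was at 0 in LY10 and cell16_LY. ARGFX followed the order DMSO (35.4 FPKM), LY_DMSO (14.2), cell16_LY (2.49), cell2_LY (2.23) and LY10 (1.96). DMSO and LY_DMSO overlapped for both genes, and the 3 LY groups overlapped for ARGFX. The sets were normalized separately, so levels across them are set side by side without a test.

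Among the 5 control blastocysts the balance of the 2 genes varied, and both were high in DMSO replicate 2. The FPKM ratio of DUXA to ARGFX was 0.378, 1.41 and 24.6 in DMSO replicates 1 to 3. It was 3.63 and 0.157 in LY_DMSO replicates 1 and 2. DMSO replicate 3 combined the highest DUXA with the lowest ARGFX of the controls, and the LY_DMSO libraries were in opposite order for the 2 genes.

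**Figure D3:**
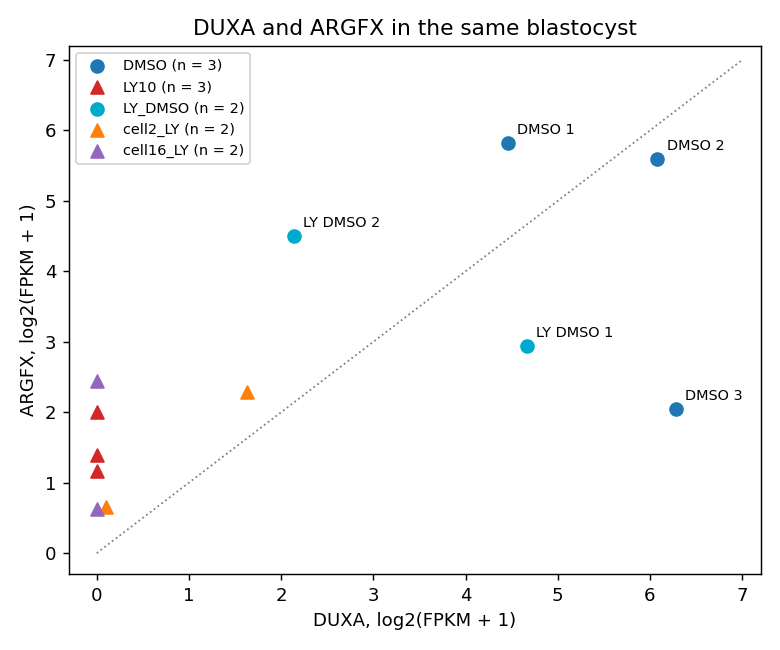
DUXA against ARGFX as log2(FPKM + 1) in the same blastocyst, with controls as circles and LY groups as triangles. The dotted line marks equal levels. The 5 controls lie on both sides of it, from a ratio of 0.157 to 24.6, and the LY blastocysts lie near the left edge.

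In whole blastocysts, fewer cells that carry a transcript and less transcript per cell cannot be told apart. Summed marker levels in the first set were 67735 to 149232 normalized counts in DMSO and 92329 to 200883 in LY10 for 12 trophectoderm genes, and 15191 to 17981 and 16595 to 21542 for 10 epiblast genes. The 12 hypoblast genes summed to 10294 to 19147 in DMSO and 17359 to 28928 in LY10. The 8 fibroblast genes did not overlap, with 726 to 2262 in DMSO and 260 to 403 in LY10. Of the 5 tested, 2 (COL1A2 and DCN) were called lower, against 8.51% of all genes. Called higher were 1 of 9 tested epiblast and 2 of 10 tested hypoblast genes, against 6.20% of all genes. No trophectoderm gene was called.

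The epiblast sum of the second set was 23782 to 26336 in LY_DMSO, 15590 to 21145 in cell2_LY and 16930 to 19878 in cell16_LY. The trophectoderm sum was 140804 to 165890 in LY_DMSO, 166510 to 241732 in cell2_LY and 173883 to 240515 in cell16_LY. Both sums thus separated the controls from the LY groups, by less than 2-fold at the extremes. The trophectoderm sums nearly touched, at 165890 and 166510. Groups did not overlap for 53.7% of all genes in cell2_LY and 42.9% in cell16_LY. The hypoblast sums overlapped, at 29284 to 56803 in LY_DMSO, 28136 to 40773 in cell2_LY and 27845 to 45421 in cell16_LY. The fibroblast sum was 865 to 1179, 810 to 1040 and 618 to 758 in the same order. The part of these sums in the DUXA and ARGFX levels was not tested. In cell2_LY, 2 of 11 tested trophectoderm genes were called higher, and 1 of 9 epiblast and 1 of 10 hypoblast genes lower. In that comparison 8.71% of all genes were called higher and 8.34% lower. In cell16_LY, 1 of 11 trophectoderm and 1 of 10 hypoblast genes were called higher, against 3.25% of all genes. No fibroblast gene was called in either.

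LEUTX, a relative of ARGFX on chromosome 18 (49326332 to 49335666), was the only other gene of this family with more than 13 reads in a blastocyst. It held 3, 65 and 658 reads in DMSO and 0, 3 and 1 in LY10. As normalized counts this is 2.33, 64.7 and 720 against 0, 2.01 and 1.29. The 3 DMSO embryos spanned 309-fold, and the lowest was about level with LY10 replicate 2.

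LEUTX passed the minimum mean only through DMSO libraries. Its log2 difference in LY10 was -4.83 (SE 1.73), with an unadjusted p of 0.0216 and an adjusted p of 0.154 in limma. Without DMSO replicate 3 it was -2.96, with an unadjusted p of 0.0809 in limma, and over all alternatives the adjusted p lay between 0.146 and 0.673. In the second set LEUTX had 0 reads in all 6 libraries, controls included. DMSO replicate 1 of the first set held only 3 reads. With 2 LY_DMSO embryos, whether the controls of the 2 sets differ in LEUTX cannot be read.

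DPRX and DUXB had 0 reads in all 12 blastocysts. Of the loci without a symbol that the tables describe as DUX4-like, 1 held 1 read in cell2_LY replicate 1. A TPRX2-like locus, LOC132342752, held 13 reads in LY_DMSO replicate 1 and 0 elsewhere. In LOC101902766, another such locus, DMSO replicate 2 held 5 reads and LY_DMSO replicate 1 held 2, and an unnamed TPRX2-like model held 3 in DMSO replicate 3. No TPRX-like or DUX-like locus other than DUXA thus passed the minimum mean.

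The wider PRD class shares the homeodomain but serves mostly later development, such as OTX2 and GSC in the anterior embryo. Of its 44 listed genes, 41 were in the blastocyst tables and 9 were tested in LY10. Of these 9, 1 was called lower and none higher by limma, where 14.7% of all genes were called in either direction, and none passed adjustment.

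DRGX had the lowest log2 difference of the 9, -3.31, and OTX2 the highest, 0.90, and neither was called. DRGX held 13 and 87 reads in DMSO replicates 1 and 2 and 0 reads in the other 4 libraries of the set. The median over the 9 was -1.01, against -0.05 over all genes tested.

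In cell2_LY, 8 genes of the PRD class were tested, with 1 called in each direction against 17.0% of all genes. PITX1, a gene of hindlimb and pituitary development, was higher, at 10.2 and 8.32 normalized counts in LY_DMSO and 44.8 and 36.5 in cell2_LY (log2 difference 2.02, p 0.0206 in limma). MIXL1, a mesendoderm gene, gave 2.09 without passing. The median was -0.28, against 0.00 over all genes.

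In cell16_LY none of these 8 genes was called by limma at an unadjusted p under 0.05 with a 2-fold change, where 5.22% of all genes were called. None of the 8 had an unadjusted p under 0.05 in limma, which 7.62% of all genes had. The values ran from -0.69 for HESX1 to 1.33 for PITX1, with a median of -0.19 against -0.01 over all genes. Between cell16_LY and cell2_LY none was called by limma and none had an unadjusted p under 0.05, against 11.3% of all genes called.

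Genes linked to the start of embryonic transcription were followed as the company in which DUXA and ARGFX are usually transcribed. In LY10, 15 of the 20 listed were tested. KLF4, a pluripotency factor (-1.29), NR5A2, a nuclear receptor (-2.58), and EIF1AX, a translation initiation factor (-1.37), were called lower. These 3 stand against 8.51% of all genes called lower. DPPA4, a chromatin protein of early embryos, was called higher (1.59), as 6.20% of all genes were. The median was -0.44, against -0.05 over all genes, and none passed adjustment, as 0.0140% of all genes did. That share moved with the fit. Without DMSO replicate 3, 1963 of 14252 genes passed adjustment, and with sample weights 1551 of 14249 did.

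In cell2_LY, 14 were tested and 5 were called lower, against 8.34% of all genes. They were KLF17, a zinc finger factor of early embryos (-4.65), DPPA2 (-1.91), DPPA3 (-1.59), DPPA4 (-1.29) and EIF1AX (-1.07). The phosphate carrier SLC34A2 was called higher (1.70), as 8.71% of all genes were. EIF1AX was the only gene of the list called lower in both, and DPPA4 had opposite signs in the 2 sets. The median was -1.17, against 0.00 over all genes.

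KLF17 had 0 reads in cell2_LY replicate 2, where DUXA had 1. It was at 324 and 159 normalized counts in LY_DMSO, 81.9 and 0 in cell2_LY, and 27.0 and 35.0 in cell16_LY. Its call in cell2_LY (p 0.0218 in limma) was lost without cell2_LY replicate 2, where the difference was -1.46, and without LY_DMSO replicate 1, where it was -4.14. In cell16_LY the difference was -2.85 and was not called, although it was called under 5 of 16 alternatives. In the fit of only the 2 groups compared, KLF17 had an unadjusted p of 0.001 and an adjusted p of 0.348 in limma.

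In cell16_LY none of the 14 genes was called, where 5.22% of all genes were. DPPA3 and TFAP2C had an unadjusted p under 0.05 in limma, as 7.62% of all genes had. Both had less than a 2-fold change (-0.94 and -0.56). The signs were negative for 12 and positive for 2, with a median of -0.51 against -0.01 over all genes. Between cell16_LY and cell2_LY, DPPA2 was called higher (1.56) and SLC34A2 lower (-1.28). These are 2 of 14 tested, near the 11.3% of all genes called in that comparison.

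Few genes shared the pattern of DUXA in LY10 and cell16_LY, with 0 reads in the LY group and reads in all its controls. DUXA was the only gene with 0 reads in the 3 LY10 libraries and at least 100 in each DMSO library, and no gene had the opposite pattern. In the second set 3 genes had 0 reads in both cell16_LY libraries and at least 40 in each LY_DMSO library. They were DUXA, LOC510631, annotated by its resemblance to the RNA-binding protein HNRNPA2B1, and LOC101903765, a ULBP-like pseudogene. No gene had the reverse pattern. Both limits were set after the DUXA reads were seen.

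LOC101903765 was also at 0 in DMSO replicate 2 and in LY10 replicate 3 and at 90.5 or more in the other LY10 libraries, unlike DUXA. LOC510631 was at 675, 5450 and 641 normalized counts in DMSO and 0, 2.01 and 23.3 in LY10. It was at 137 and 252 in LY_DMSO, 19.7 and 0 in cell2_LY, and 0 in both cell16_LY libraries, so that it was higher than every LY library in all 5 controls.

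Over 12 blastocysts and 12763 genes found at the same position in both sets, Pearson's r was taken on log2(normalized count + 1) after subtracting the mean of each set. The points share treatment groups and sets, so the coefficients only describe likeness. The genes most like DUXA were LOC789309, annotated as the F-box protein FBXO27 (r 0.94), LOC510631 (0.93), LOC100140788, a zinc finger gene (0.93), LOC784637, a BICD1 pseudogene (0.90), and LOC538435, annotated as HNRNPA2B1 (0.89). All 5 carry locus numbers in place of symbols, and LOC510631 and LOC538435 resemble the same gene, so reads may be split between them.

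LOC100140788 was at 170, 1119 and 883 normalized counts in DMSO and 4.09, 0 and 37.6 in LY10, and LOC538435 at 1015, 4041 and 3252 against 28.6, 89.8 and 28.5. LOC100140788 in the second set was at 229 and 94.3 in LY_DMSO, 50.2 and 1.97 in cell2_LY, and 1.86 and 0 in cell16_LY. Both genes, like DUXA, were higher in each control than in any LY library of their set, which their choice by r favours. LOC784637 was not, at 12.9 in LY_DMSO replicate 2 and 15.3 in cell2_LY replicate 1.

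The genes most like ARGFX were TMA16, a ribosome-associated protein gene (r 0.94), GSTM3, a glutathione transferase (0.93), BARD1, the partner of BRCA1 (0.90), TRIM24, a chromatin reader (0.89), and EID1, an inhibitor of the acetyltransferase EP300 (0.88). None of them was among the 5 most like DUXA. GSTM3 was at 590, 1691 and 31.7 normalized counts in DMSO and 6.82, 2.68 and 1.29 in LY10, low in DMSO replicate 3 as ARGFX was. GSTM3 in the second set was at 31.5 and 237 in LY_DMSO, 2.18 and 0 in cell2_LY, and 0 and 2.33 in cell16_LY.

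DUXA and ARGFX had an r of 0.70 with each other (Spearman's rho 0.62). By that measure ARGFX was 155th of 12762 genes in likeness to DUXA, and DUXA was 338th in likeness to ARGFX.

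**Figure D4:**
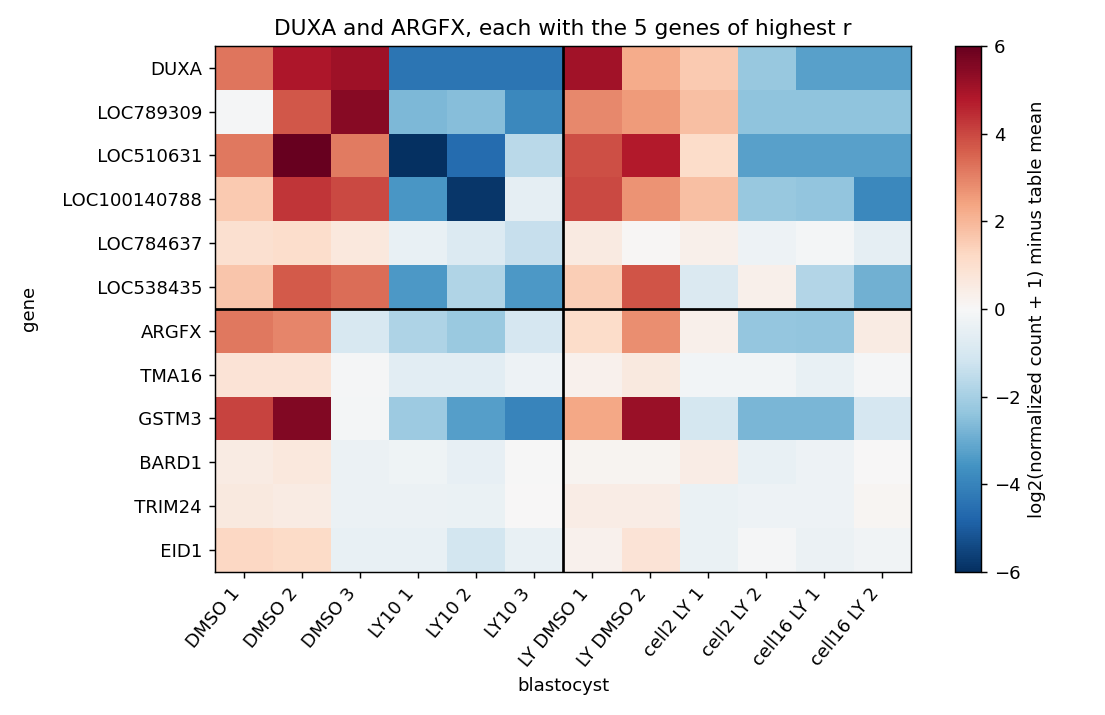
Deviation of log2(normalized count + 1) from the mean of its set in 12 blastocysts (columns) for DUXA and ARGFX and the 5 genes with the highest r to each (rows). The vertical line parts the 2 sets and the horizontal line the 2 groups of genes. The loci under DUXA lie near or above the mean in all 3 DMSO embryos, while ARGFX and GSTM3 are high in DMSO replicates 1 and 2 and near or below the mean in replicate 3.

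Of the 3 annotated genes on each side of DUXA, 3 were tested. ZIM3, a KRAB zinc finger gene 16.6 kb away, was at 44.2, 296 and 50.3 normalized counts in DMSO and 0, 13.4 and 7.77 in LY10. It passed the minimum mean through the controls in both sets. Its log2 difference was -4.14, with an unadjusted p of 0.00556 in limma and an adjusted p of 0.0959. ZNF805, on the other side, gave -0.09, and AURKC, a meiotic kinase at 45.1 kb, gave 0.02.

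ZIM3 held few reads in the second set, with 13 and 56 in LY_DMSO, 3 and 5 in cell2_LY, and 0 and 4 in cell16_LY. Its log2 difference was -2.38 in cell2_LY, which was not called (p 0.124 in limma), and -3.46 in cell16_LY, which was called (p 0.0364 in limma, adjusted p 0.620), as were 1.97% of all genes. The latter call was lost without cell16_LY replicate 1, where the difference was -2.21. The values of ZNF805 were 0.22 and -0.07, and those of AURKC -0.66 and -0.34, none called.

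Around ARGFX, POLQ, a DNA polymerase gene 29.7 kb away, gave 0.41 in LY10, 0.15 in cell2_LY and -0.05 in cell16_LY. STXBP5L gave 1.23, 1.12 and 0.92, and GOLGB1, a Golgi protein gene, 0.96, -0.08 and 0.05. None was called at a 2-fold change, although GOLGB1 had an unadjusted p of 0.00145 in limma in LY10. The other 3 neighbours, LOC132345640, FBXO40 and HCLS1, were below the minimum mean.

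**Figure D5:**
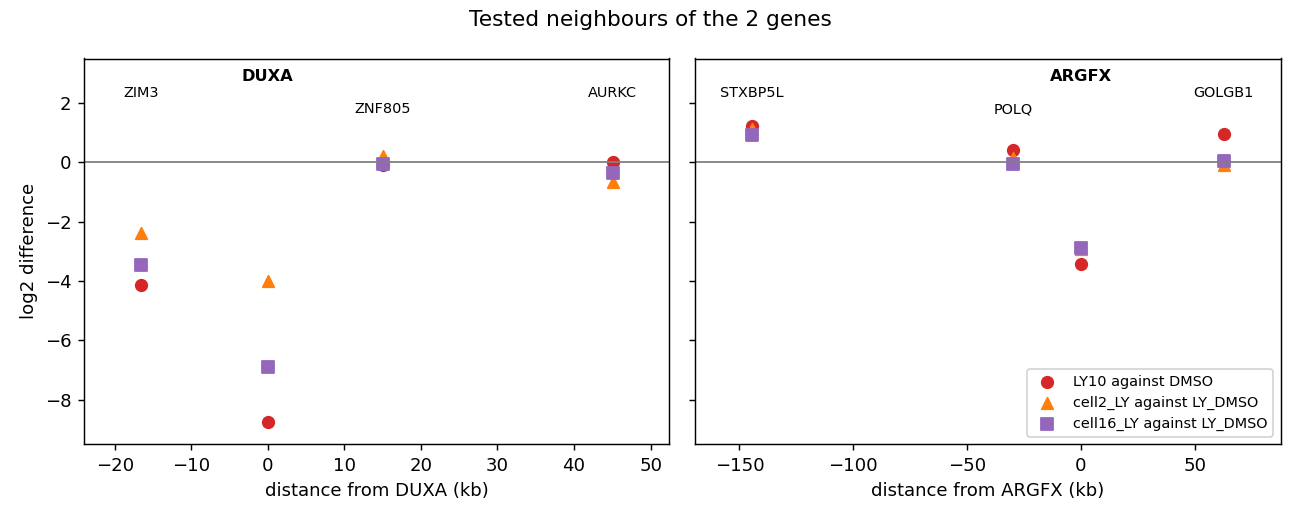
Log2 difference of the tested neighbours of DUXA (left) and ARGFX (right) against their distance in kb from the gene, which is at 0, for LY10, cell2_LY and cell16_LY. ZIM3 lies below 0 in all 3 comparisons, from -4.14 to -2.38, and the genes on the other side of DUXA and around ARGFX lie between -0.66 and 1.23.

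In bESCs neither gene could be read by name. The bESC table uses another annotation, in which a long non-coding model without a symbol (ENSBTAG00000050946, chromosome 18, 64398336 to 64400322, minus strand) overlaps DUXA and had 0 reads in all 4 libraries. At ARGFX that annotation lists only an antisense model (ENSBTAG00000052248), also with 0 reads. For a library of this depth 0 reads allow at most 3.18 normalized counts of the DUXA model, which covers 380 bases of transcript.

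Of the PRD class, 17 genes were tested in bESCs. None was called by limma and none had an unadjusted p under 0.05, where 0.0749% of all genes were called and 0.0999% had such a p. The same held for the 10 tested genes of embryonic transcription onset. These fits did not pair the cultures. With the replicate number as a block, limma called 146 genes in place of 12, and 1 of them was of the PRD class. ZSCAN4, DPPA2, KLF17 and ZNF280A had 0 reads in all 4 bESC libraries.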

How the data were processed

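The authors made the blastocyst libraries by SMART-seq and the bESC libraries from purified RNA. Per the labels and the study's methods, reads were trimmed with fastp, aligned with HISAT2 2.0.5 (STAR is also named), assembled with StringTie 1.3.3b and counted with featureCounts 1.5.0-p3. The deposited tables hold FPKM beside the log2 fold changes and p-values of the authors' DESeq2 comparisons, which were not used. FPKM multiplied by gene length gave whole reads for 100% of values within 0.02 reads. Normalized counts are these reads scaled from the library size that FPKM implies to the geometric mean of the table (10651692, 15246235 and 30547774). The implied size exceeded the reads on genes by a factor of 1.23 in cell2_LY replicate 1, and the factor lay between 0.949 and 1.07 in all others. For genes whose mean reached 10, log2(normalized count + 1) was fitted in limma 3.58.1 (R 4.3.3), with a trend and with the second blastocyst table in 1 fit. A call is an unadjusted p under 0.05 with an absolute log2 difference above 1. Adjustment is Benjamini-Hochberg over all tested genes. Count tests were not run on the recovered reads. A voom fit on the recovered reads was an alternative.

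Limits for 0 reads are 3 reads, and intervals have a level of 95%. Both cover counting error only, since no molecular identifiers were used. No source gives the embryos' parents or culture drops, so p-values measure only the spread between these embryos. Gene positions were those of RefSeq ARS-UCD2.0 for 98.8% of the blastocyst genes with a Gene ID. Unnamed models carry numbers that mean other loci in each table and were matched to none. Whether near-identical copies share reads with DUXA or ARGFX was not examined, and strand use in counting is not given in the sources used here. The members, lists and tests were chosen with earlier results of these data known. Genes named are DUXA and ARGFX, their family, the lowest, highest and called genes of each list (1 gene of the PRD class is not reported here), the 5 most alike and the 3 nearest on each side. The fits were also run on simulated reads with the same spread for all genes, which need not match the spread between these embryos. Python 3.11.15 with pandas 2.3.3, scipy 1.17.1, numpy 2.4.6 and matplotlib 3.10.9 made the other tables and the plots.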

Additional observations from a re-analysis of the deposited data

Results flagged for a closer look

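Among the genes of the embryonic transcription list, 3 differed from control in opposite directions in the 2 blastocyst sets under LY from the 2-cell stage, with no overlap between groups in either set, and the difference between the sets was not tested. Groups did not overlap for 28.1% of all genes in LY10 and 53.7% in cell2_LY, and of these 3 only DPPA4 was called in limma. DPPA4 had a log2 difference of 1.59 in LY10 against DMSO and of -1.29 in cell2_LY against LY_DMSO. NFYA, a subunit of the CCAAT-binding factor, had 0.72 and -0.44. TFAP2C, a trophectoderm and germ cell factor, had -0.44 and 0.31. DUXA and ARGFX were lower in LY in both sets.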

How the results depend on the processing

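DUXA kept a negative log2 difference under every alternative in all 4 blastocyst comparisons, and ARGFX in the 3 against controls. The DUXA call in cell2_LY held under 13 of 17 alternatives. It was lost at a mean of at least 50 (-4.00, p 0.159 in limma) and with voom weights (-4.30, p 0.0606 in limma). With 1 library left out the difference ran from -5.92 to -2.09. The alternatives reuse the libraries whose controls carried DUXA past the minimum mean, so they add no further support. With all libraries kept, the adjusted p in limma was 0.122 or more. The DUXA difference in LY10, set by the pseudocount at 0 reads, ran from -9.76 to -5.61 with all libraries. With reads on genes as library size the median of all genes moved from 0.00 to 0.24 in cell2_LY, and from 0.04 to -0.18 in cell16_LY against cell2_LY. Over all genes, 2097 of 14249 tested were called in LY10. Without DMSO replicate 3 it was 3449 of 14252, and without DMSO replicate 2 it was 1327 of 13767. Other PRD-class genes called in LY10 numbered 2 of 10 tested, and 5 of 36 without a filter. They numbered 1 with a mean of at least 50, quantile normalization, log2(FPKM + 1) or voom weights. With 1 library left out they numbered 0 to 5. They were 5 of 11 without DMSO replicate 3, 0 of 7 without DMSO replicate 2 and 1 of 11 without LY10 replicate 3. In cell2_LY they numbered 2, and 1 with a mean of at least 50, reads on genes, voom or sample weights, 0 with log2(FPKM + 1) or only the 2 groups compared, and 0 to 3 with 1 library left out (0 without LY_DMSO replicate 2). In cell16_LY the count rose from 0 to 1 without a filter and to at most 1 with 1 library left out. Genes of embryonic transcription onset called in cell16_LY numbered 0, and 1 with a pseudocount of 5, the replicate block or only the 2 groups compared, 2 with voom weights, and 0 to 2 with 1 library left out (2 without cell16_LY replicate 2). In cell16_LY against cell2_LY they numbered 2, 4 with reads on genes, 1 with log2(FPKM + 1), and 1 to 2 with 1 library left out. In bESCs the PRD-class count rose from 0 to 1 under the replicate block, and both counts were 0 to 1 with 1 library left out. The same alternatives were run for LEUTX, ZIM3 and KLF17 after seeing the data. All kept their sign in each comparison with a control, and the call was lost under 8 of 16 for LEUTX in LY10, 1 of 16 for ZIM3 in LY10, 2 of 15 for ZIM3 in cell16_LY and 2 of 16 for KLF17 in cell2_LY, while KLF17 in cell16_LY gained a call under 5 of 16. Where 1 library was left of a group of 2, it was assumed to vary like the other groups. The cause of these changes was not tested.

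The reported fits did not take the replicate numbers as pairs. Deviations of same-numbered blastocysts correlated between -0.232 and 0.168. Those of the 2 bESC pairs correlated at 0.789, which is a hint from the data and not from the design. With 2 libraries in each group, both pairs give the same value by construction. With the replicate number as a block, DUXA in cell2_LY kept its difference of -4.00 with an unadjusted p of 0.0133 in limma. Depth limits DUXA in LY10 to below 4.09 normalized counts in any library, and 2 libraries per group limit every comparison of the second set.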
